A study of Homo sapiens with 2 samples.

Results

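The NMU-positive cells of day 160 are 497 cells of a single-cell RNA library of astrocyte progenitors grown from H7, an established human embryonic stem cell line. They were chosen by counts of unique molecular identifiers (UMIs), each of which stands for 1 captured RNA molecule. A barcode passed when it showed at least 1000 genes and when mitochondrially encoded genes took no more than 15% of its UMIs, and a passing day 160 cell was a member with 2 or more UMIs of NMU and fewer than 5 of CRABP1, a retinoic acid binding protein. The members were 4.98% of the 9972 passing day 160 cells, and 10496 cells passed in the whole series. A member or other cell with at least 1 UMI of both MKI67 and TOP2A, 2 genes of dividing cells, is called dividing here. A cell called non-dividing is any other, which says only that no UMI was found of at least 1 of these genes. The groups were 438 dividing members, 59 non-dividing members, 958 dividing other cells low in CRABP1 (fewer than 5 UMIs), 6528 non-dividing other cells low in CRABP1, and 1989 other cells with 5 or more CRABP1 UMIs. All of them shared 1 library, in which cells of 3 separate differentiations of H7 were combined with no label to tell them apart, and all cultures had received the cytokine LIF, the bone morphogenetic protein BMP4 and the fibroblast growth factor FGF1. The series holds 1 more library, of day 220, made from the same line with the same agents. Its title and time label give day 220 while its protocol text repeats the earlier day.

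NMU encodes neuromedin U, the precursor of a secreted neuropeptide that acts on the receptors NMUR1 and NMUR2 and is best known from the gut, appetite and stress. PTTG1, the other gene given as a marker of these cells, encodes securin, which holds the protease separase inactive until the anaphase-promoting complex, with its activator CDC20, destroys securin and the sister chromatids part. PTTG1 lies at chr5:160421822-160428744 (plus strand), NMU at chr4:55595229-55636698 (minus strand) and CCNA1, a cyclin gene named below, at chr13:36431520-36442882 (plus strand), in GENCODE 29 on GRCh38. Messenger RNAs of securin, B-type cyclins and mitotic kinases build up in G2 and mitosis, after those of the replication genes of G1 and S phase. Part of the G2 and mitosis genes is known to be held silent outside these stages through a TTTGAA element near the start site, the cell cycle genes homology region, and many of them carry CCAAT boxes.

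The promoters of NMU, of PTTG1 and of CCNA1, the gene that led the comparison among dividing cells, are shown with that of PLK1, a mitotic kinase among the 12 genes that were highest in the members. Each runs from 250 bases before to 50 bases after the start site in RefSeq on GRCh38.p14, 5′ to 3′ on the gene's own strand, and capitals mark 3 motifs on either strand: the CCAAT box, the homology region element TTTGAA and its variant spelling TTCGAA. They do not overlap one another except where CCAAT boxes of both strands share bases. The NMU window lies at chr4:55636744-55637043 on the minus strand, PTTG1 at chr5:160421605-160421904, CCNA1 at chr13:36431705-36432004 and PLK1 at chr16:23678639-23678938, these 3 on the plus strand.
NMU: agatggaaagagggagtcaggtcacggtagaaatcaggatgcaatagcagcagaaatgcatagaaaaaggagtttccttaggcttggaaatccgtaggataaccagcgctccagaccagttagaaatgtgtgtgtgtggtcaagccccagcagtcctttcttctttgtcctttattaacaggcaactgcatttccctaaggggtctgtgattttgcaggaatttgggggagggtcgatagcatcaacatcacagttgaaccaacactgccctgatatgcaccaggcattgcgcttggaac
PTTG1: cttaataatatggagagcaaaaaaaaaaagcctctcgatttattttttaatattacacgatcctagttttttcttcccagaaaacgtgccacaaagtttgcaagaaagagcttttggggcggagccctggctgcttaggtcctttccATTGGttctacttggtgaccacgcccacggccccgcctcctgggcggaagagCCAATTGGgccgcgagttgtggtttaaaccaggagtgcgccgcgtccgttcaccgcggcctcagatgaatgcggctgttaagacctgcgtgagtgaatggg
CCNA1: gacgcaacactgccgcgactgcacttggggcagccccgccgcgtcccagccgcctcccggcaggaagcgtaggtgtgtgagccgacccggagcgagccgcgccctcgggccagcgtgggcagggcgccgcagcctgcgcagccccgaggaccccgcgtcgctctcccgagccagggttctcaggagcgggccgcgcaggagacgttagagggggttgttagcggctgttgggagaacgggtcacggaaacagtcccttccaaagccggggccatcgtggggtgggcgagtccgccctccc
PLK1: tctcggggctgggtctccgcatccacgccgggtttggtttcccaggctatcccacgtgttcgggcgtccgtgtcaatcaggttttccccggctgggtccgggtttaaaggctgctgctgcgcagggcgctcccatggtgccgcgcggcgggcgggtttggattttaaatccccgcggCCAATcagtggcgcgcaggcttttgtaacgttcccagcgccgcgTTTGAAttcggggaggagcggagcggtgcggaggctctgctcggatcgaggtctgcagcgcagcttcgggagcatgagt
The NMU and CCNA1 windows held none of the 3 motifs. Neither window covers the start of its gene in the GENCODE positions given above. That start is chr4:55636698 for NMU, downstream of its window, and chr13:36431520 for CCNA1, upstream of its window. The GENCODE start of PLK1, chr16:23677656, also lies upstream of its window. Bases at those starts were not searched, so the absence of motifs for NMU and CCNA1 holds for these windows only. PTTG1 held CCAAT at 3 places, of which 2 overlap, and PLK1 held 1 CCAAT and 1 TTTGAA. Of the 12 genes highest in the members, 10 had a promoter in the table, TROAP and AURKA being the others. Of these 10, TTTGAA occurred in 5, TTCGAA in none and CCAAT in 8. Among all 27305 promoters of this length, TTTGAA occurred in 15.4% and CCAAT in 35.7%, and among those of 7214 genes tested in the members they occurred in 9.62% and 38.1%. A match is a run of letters in the window and was not tested as a site.

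NMU chose the members, so its own values are given as a description. Levels are summed UMIs of a group scaled to 1000000 UMIs (CPM). NMU stood at 194 CPM in the members (185 to 203, exact Poisson 95% interval) and at 3.95 CPM in the other cells low in CRABP1. A member carried 2 to 18 NMU UMIs with a median of 3, and 186 of the 497 members had exactly 2. Just outside the threshold, 367 cells low in CRABP1 had a single NMU UMI; 68.7% of them were dividing and they held PTTG1 at 664 CPM. Just inside, the cells with 2 NMU UMIs were dividing in 84.4% and held PTTG1 at 1046 CPM. On the CRABP1 side, 14 members carried 4 CRABP1 UMIs and held PTTG1 at 1023 CPM, against 1429 CPM in the 9 cells with 5 CRABP1 UMIs that the limit kept out. With no replicate library there was no test, and every interval here covers counting error only. Cells are not replicates, and the spread between differentiations cannot be seen in these counts.

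The members were deeper than the rest, with a median of 14717 UMIs against 10223 in the other passing cells, and 10.9% of members against 5.58% of other cells were marked as doublets by Scrublet; the part of depth and doublets in the gene differences was not tested beyond the alternatives given further on. Among dividing cells the doublet shares were alike, 11.6% in members and 11.6% in other cells low in CRABP1. Genes of leukocytes, endothelium and neural crest were at or near 0. Of 10 microglia and leukocyte genes, 9 were at 0 in the members and the list summed to 0.107 CPM, against 0.0418 CPM in the other cells, where 6 were at 0. Endothelial and blood genes summed to 1.18 CPM in members and 0.694 CPM in other cells, and 16 neural crest and placode genes to 2.04 and 2.08 CPM in these 2 groups. Mesenchymal and contractile genes were present in both, with 14 genes summing to 987 CPM in members, where 3 were at 0, and 952 CPM in other cells, where 1 was at 0. Radial glia and astrocyte genes were both present in the members. VIM was found in all 497 and SOX2 in 496. The 18 astrocyte genes summed to 2805 CPM in members and 4100 CPM in other cells, and 12 of them reached 10 CPM in the one group or the other. GJB6 was at 0 UMIs in both groups, while AQP4 stood at 3.11 CPM and GFAP at 333 CPM in members. The genes that led the members were those of G2 and mitosis, and the cells are named by NMU, not as a cell type.

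Most NMU-positive cells were dividing. A UMI of both MKI67 and TOP2A was found in 438 of 497 members, 88.1% (85.0 to 90.8, exact Clopper-Pearson 95% interval), against 14.2% (13.5 to 14.9) of the other passing cells. With each cell thinned at random to 5000 UMIs, so that depth was equal, the shares were 74.3% of 494 members and 11.02% of 8785 other cells. A UMI of either gene was found in 482 of the 497 members, so that 15 members had none. Turned round, NMU at 2 or more UMIs was found in 31.4% of the dividing cells low in CRABP1 and in 0.896% of the cells low in CRABP1 that were not dividing. The cells with 5 or more CRABP1 UMIs, none of which can be members, had the same NMU threshold met in 31.7% of dividing and 0.812% of non-dividing cells. The shares of dividing cells lay within each other's intervals (28.9 to 33.9% below the limit, 27.1 to 36.6% above it). The 136 cells that met the NMU limit but not the CRABP1 limit were dividing in 90.4% and held PTTG1 at 1092 CPM and CCNA1 at 60.3 CPM.

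Within the dividing cells, NMU went with the later part of the cycle. Among thinned dividing cells low in CRABP1, the share with an NMU UMI was 15.01% where CCNB1, the cyclin of mitotic entry, had no UMI, 24.6% with 1 UMI, 42.3% with 2 to 3, 54.2% with 4 to 7 and 73.0% with 8 or more. It ran the other way along the summed UMIs of 24 S phase genes, with 51.1% at 1 to 3 UMIs, 47.4% at 4 to 9 and 14.8% at 10 or more; 16 cells had none of these UMIs, with a share of 68.8% and an interval of 41.3 to 89.0%. As a level to read these against, 0.926% of thinned cells with no UMI of MKI67 or TOP2A had an NMU UMI, at a median of 10077 UMIs before thinning. In cluster 2, led by the interneuron genes CALB2 and SCGN, it was 0.654% at a median of 6299 UMIs. Of the other clusters with few dividing cells, it was 1.75% (1.06 to 2.72) in cluster 5 and 3.19% (1.75 to 5.29) in cluster 7. The level of free RNA was not measured; the shares along CCNB1 and the S phase genes all lay above these.

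**Figure D1:**
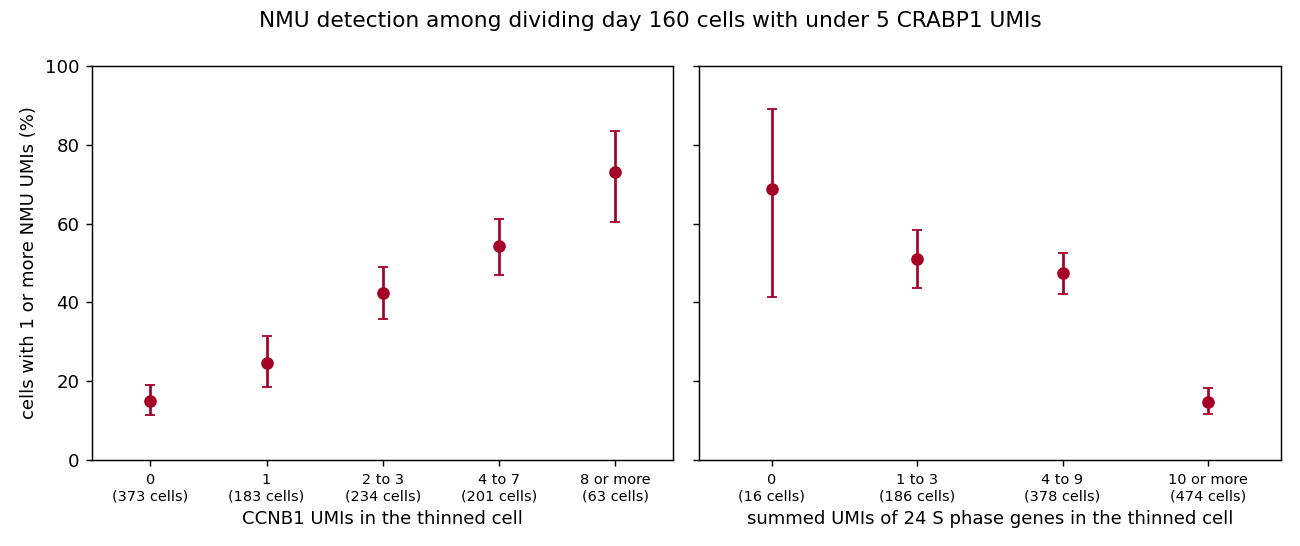
Share of thinned dividing day 160 cells with fewer than 5 CRABP1 UMIs that had 1 or more NMU UMIs (vertical axis, %), by CCNB1 UMIs (left) and by the summed UMIs of 24 S phase genes (right); bars are exact 95% intervals for counting error. The share is 15.01% with no CCNB1 UMI and 73.0% with 8 or more, and 14.8% at 10 or more S phase UMIs.

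PTTG1, which the rule did not use but which had been named as a marker of these cells, was found in 496 of 497 members and in 4111 of 9475 other passing cells. Thinned to equal depth, it was found in 97.0% of members and 29.4% of other cells. Its level was 1271 CPM (1248 to 1294) in the members and 155 CPM (153 to 157) in the other cells, 8.20-fold higher in the members (8.01 to 8.39). Split by division, PTTG1 stood at 1306 CPM (1282 to 1330) in dividing members and 867 CPM (802 to 937) in non-dividing members, then at 548 CPM (536 to 560) in dividing other cells low in CRABP1 and 55.0 CPM in non-dividing other cells low in CRABP1. These intervals did not overlap, and the non-dividing members lay above the dividing other cells. A member carried a median of 22 PTTG1 UMIs, a dividing member 23 and a non-dividing member 10, against 6 in a dividing other cell. By NMU count in cells low in CRABP1, PTTG1 stood at 99.7 CPM with no NMU UMI, 664 CPM with 1, 1046 CPM with 2, 1376 CPM with 3 to 4 and 1403 CPM with 5 or more. CCNA1 went on increasing over the same bins, at 4.65, 20.5, 43.8, 69.7 and 108 CPM. PTTG2, a near-identical copy to which reads of PTTG1 could have been assigned, had 3 UMIs in the members.

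**Figure D2:**
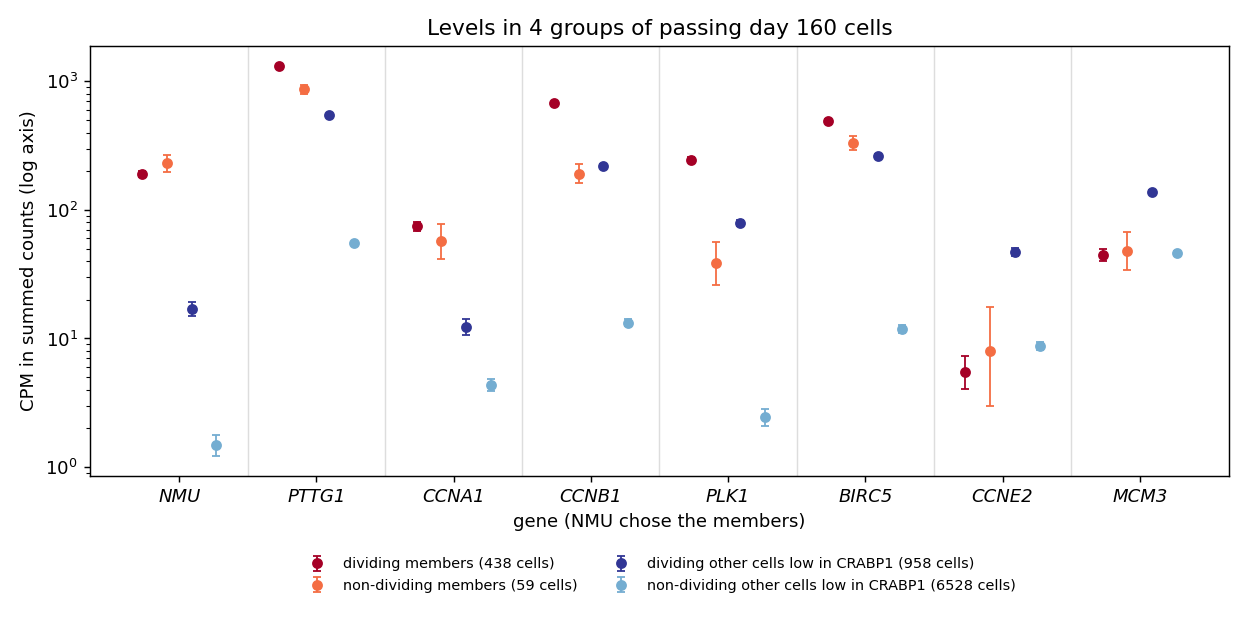
Level of 8 genes (CPM in summed counts, log axis) in 4 groups of day 160 cells; points are group levels and bars exact Poisson 95% intervals for counting error, often smaller than the point. PTTG1 stands at 1306 CPM in dividing members, 867 CPM in non-dividing members, 548 CPM in dividing other cells and 55.0 CPM in non-dividing other cells, while CCNE2 is highest in the dividing other cells; NMU chose the members.

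Across all genes, a ratio of CPM + 1 past 2-fold is called here, among genes that reached 10 CPM in the one group or the other. Counts for a gene list are given out of all its genes, and those under 10 CPM in both groups were not open to a call. In the members 283 of 8898 such genes (3.18%) were called higher than in the other passing cells and 87 (0.978%) lower, 4.16% in all. The median log2 ratio of all these genes was 0.01. The 12 highest were NEK2, CDC20, PLK1, CCNB1, TROAP, CENPA, KIF20A, CCNA1, CENPE, CCNB2, AURKA and PIF1, with log2 ratios of 3.59 to 3.15. NEK2, a kinase of centrosome separation, stood at 122 CPM in members and 9.20 CPM in other cells. CDC20 stood at 387 CPM in members and 32.5 CPM in other cells, and PLK1 at 229 CPM and 19.6 CPM in these groups. CENPA and CENPE, a histone and a motor of the kinetochore, stood at 186 and 255 CPM in members, against 17.8 and 27.4 CPM in other cells. CCNA1, the A-type cyclin known mostly from the testis, stood at 73.2 CPM in members and 6.92 CPM in other cells.

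The genes of G2 and mitosis were higher as a whole. All 25 listed genes were called higher in the members, with a median log2 ratio of 2.89 beside 0.01 over all genes. MKI67 and TOP2A, which belong to this list, stood at 507 and 1084 CPM in members, against 83.6 and 140 CPM in other cells. Of 20 genes of securin, separase and the anaphase machinery, 14 were higher and none lower, median 2.10. These included UBE2C, a ubiquitin-conjugating enzyme of the anaphase-promoting complex, at 1066 CPM in members against 125 CPM in other cells, SGO2, a protector of cohesion, at 266 CPM in members against 34.5 CPM in other cells, and ESPL1, separase itself, at 16.7 CPM in members against 3.31 CPM in other cells. BUB1, BUB1B and MAD2L1 of the spindle checkpoint stood at 115, 102 and 300 CPM in members and 13.1, 16.3 and 68.6 CPM in other cells. Among cohesin subunits RAD21, the one that separase cuts, was past 2-fold at 470 CPM in members and 175 CPM in other cells. The others were not, with SMC3 at 233 CPM in members and 182 CPM in other cells, STAG2 at 153 and 150 CPM, SMC1A at 82.4 and 58.6 CPM and STAG1 at 36.8 and 26.1 CPM in these groups. The replication genes of S phase stood near the background: 1 of 24 was higher (RRM2, 142 CPM in members, 54.2 CPM in other cells) and 1 lower (CCNE2, 5.68 and 15.6 CPM), with a median of -0.13. Among inhibitors of cyclin-dependent kinases and quiescence genes, 1 of 16 was past 2-fold, CDKN2C, at 179 CPM in members against 51.5 CPM in other cells.

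On the low side, 7 of 15 neuron genes were called lower in the members than in all other cells and none higher, median -1.11, beside 0.978% of all genes. Against the other cells low in CRABP1, 4 of the 15 were lower, median -0.85. Among dividing cells 7 of the 15 reached 10 CPM and none of these was past 2-fold, with a median of -0.13 over all 15. GAP43 and TUBB3 were not past 2-fold against all other cells, at 247 and 887 CPM in members and 256 and 1358 CPM in other cells. STMN2, a tubulin-binding protein of growing axons, had 4 UMIs in members (0.428 CPM) against 12.98 CPM in other cells. Within dividing cells STMN2 stayed under 10 CPM and was not open to a call. It had 4 of 8590587 UMIs in dividing members and 43 of 14957898 UMIs in dividing other cells low in CRABP1. SLC32A1, the vesicular GABA transporter, stood at 3.86 CPM in members against 16.4 CPM in other cells. SNAP25, a synaptic vesicle fusion protein, stood at 4.07 CPM in members and 16.2 CPM in other cells. The lowest gene of all was SST, the neuropeptide somatostatin, at 0.428 CPM in members and 13.3 CPM in other cells. It was carried by 151 of 9475 other cells, and DCX, CALB2 and SCGN of the neuronal precursors were the 3 of 16 that were lower. The astrocyte genes were past 2-fold only for APOE (9.96 CPM in members, 25.2 CPM in other cells) of 18, and none of 19 radial glia genes was. COL1A1 and C6orf15 were also among the 12 lowest, and each rested on few cells: C6orf15 had UMIs in 131 of the 9475 other cells, and its direction turned under other limits (given further on).

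With the other cells held to the same CRABP1 limit, 302 of 8892 genes were called higher in the members (3.4%) and 68 lower (0.765%), 4.16% in all. The same 12 genes were highest, led by NEK2 at 122 CPM in members against 6.85 CPM in other cells low in CRABP1. PTTG1 stood at 1271 CPM in members against 134 CPM in the other cells low in CRABP1.

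The rest of the neuromedin U system was not detected in this library: NMUR1, NMUR2 and NMS, the related peptide neuromedin S, had 0 UMIs in the members and in the other passing day 160 cells, which allows up to 0.321 CPM in the members and 0.0251 CPM in the other cells (3 counts). Of 12 prohormone processing genes 6 reached 10 CPM, and none of these was past 2-fold in the members. CPE, a carboxypeptidase that trims peptides, stood at 129 CPM in members and 166 CPM in other cells, and PAM, the enzyme that amidates the C terminus of many neuropeptides, at 70.6 and 78.0 CPM. CPD stood at 16.9 CPM in members and 18.0 CPM in other cells, PCSK7 at 31.0 and 43.01 CPM, PCSK5 at 8.89 and 10.9 CPM, and PCSK1N, an inhibitor of PCSK1, at 267 and 428 CPM. The convertase PCSK1 itself had 0 UMIs in members and 10 in other cells. Of 21 neuropeptide and granin genes SST and SCG3 were lower, with SCG3 at 3.75 CPM in members and 14.8 CPM in other cells, and 1 was higher, NMB, another peptide with the neuromedin name, at 25.2 CPM in members (167 cells with a UMI) against 11.7 CPM in other cells.

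Among dividing cells, members were higher in G2 and mitosis genes and lower in S phase genes than the other cells low in CRABP1. Of 8867 genes, 43 were called higher in dividing members (0.485%) and 99 lower (1.12%), 1.6% in all. NMU apart, CCNA1 led, at 74.5 CPM (68.8 to 80.5) in dividing members and 12.3 CPM (10.6 to 14.2) in dividing other cells, 6.06-fold (5.13 to 7.17). It had a UMI in 240 of 438 dividing members against 112 of 958 dividing other cells. NEK2, CCNB1 and PLK1 stood at 130, 677 and 245 CPM in dividing members, against 38.1, 220 and 79.2 CPM in dividing other cells. Leaving out MKI67 and TOP2A, by which both groups were chosen, 12 of 23 G2 and mitosis genes were higher and none lower, median 1.03, whereas 20 of the 24 S phase genes were lower and none higher, median -1.53, beside a median of -0.00 over all genes. CCNE2, the cyclin of S phase entry, was lowest, at 5.47 CPM in dividing members and 47.3 CPM in dividing other cells. MCM3, of the replicative helicase, stood at 44.7 and 138 CPM in these groups, and MKI67 differed less, at 544 and 416 CPM.

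Some genes of the upper end are not mitotic genes by name. TNFAIP8L1 stood at 32.4 CPM in dividing members (171 cells with a UMI) against 9.83 CPM in dividing other cells. ARL6IP1, a protein of the endoplasmic reticulum, stood at 1374 CPM in dividing members against 483 CPM in dividing other cells. IFIT1, an interferon-induced protein, stood at 30.1 CPM in dividing members (153 cells) against 10.3 CPM in dividing other cells, and was the only 1 of 21 HLA class I and interferon genes past 2-fold. Of 12 HLA class II genes 9 reached 10 CPM in this comparison, and none of these was past 2-fold. HLA-DRA stood at 442 CPM in dividing members and 303 CPM in dividing other cells. Counts of HLA-DRB1 and its paralogs can have been split between near-identical genes. TNFAIP8L1, ARL6IP1 and IFIT1 were no longer past 2-fold higher when both groups were held to 5 or more CCNB1 UMIs, as given next.

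Fewer genes were past 2-fold among dividing cells with 5 or more CCNB1 UMIs. With this lower limit, chosen after the other values were seen, 331 members and 215 other cells low in CRABP1 differed past 2-fold in 5 genes upward (0.0569% of 8788) and 13 downward (0.148%), 0.205% in all. CCNB1 was not equal above the limit, at 794 CPM in members and 603 CPM in other cells. None of the 22 G2 and mitosis genes other than CCNB1, MKI67 and TOP2A, which chose the cells, was past 2-fold, median 0.25, and CDC20 stood at 478 CPM in members against 342 CPM in other cells. PTTG1 stood at 1395 CPM in these members and 1030 CPM in the other cells, 1.35-fold (1.31 to 1.40). CCNA1 was again the highest, at 80.5 CPM in members (200 of 331 cells) and 28.7 CPM in other cells (65 of 215 cells), 2.80-fold (2.29 to 3.44). The other 4 were RAMP1, PTPN21, ANKRD1 and HLA-DQA1, each at 15 CPM or less in both groups. RAMP1, a receptor partner of calcitonin-family peptides, had 73 UMIs in members and 13 in other cells. These 4 rested on few cells. Over all 438 dividing members, without the CCNB1 limit, RAMP1 had UMIs in 32 cells, PTPN21 in 78, ANKRD1 in 13 and HLA-DQA1 in 23. In the 958 dividing other cells low in CRABP1 these genes had UMIs in 46, 107, 13 and 37 cells. Lower with the CCNB1 limit were HIST1H4C, a replication-dependent histone gene, at 710 CPM in members and 1550 CPM in other cells, and CXCL12, a chemokine, at 5.92 and 20.0 CPM. CDC45 of the replicative helicase stood at 12.3 CPM in members and 25.8 CPM in other cells and was the 1 S phase gene of 24 that stayed lower.

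Of the 59 non-dividing members, 11.9% of the members, 44 carried a UMI of MKI67 or TOP2A. MKI67 had no UMI in 41 and TOP2A in 33 of the 59, against 6281 and 6109 of the 6528 non-dividing other cells low in CRABP1. The 2 groups were thus not alike in these genes, and the part of this in the differences below was not tested. PTTG1 was found in all 59, but other mitotic messages came from fewer cells: CCNB1 and UBE2C had no UMI in 33 of the 59, CDC20 in 39 and PLK1 in 47. Single cells reached 36 CCNB1 and 34 UBE2C UMIs, and the summed levels that follow are not those of a typical cell. Against the 6528 non-dividing other cells low in CRABP1, 330 of 8977 genes were called higher (3.68%) and 391 lower (4.36%), 8.03% in all, with a single UMI of the smaller group worth 1.34 CPM. Leaving out MKI67 and TOP2A, which made the split, 22 of 23 G2 and mitosis genes were higher, median 3.54, and CDK1, the kinase of mitotic entry, was the exception at 52.4 CPM in non-dividing members and 32.9 CPM in non-dividing other cells. BIRC5, the survivin subunit of the chromosomal passenger complex, led with 333 CPM in non-dividing members against 11.8 CPM in non-dividing other cells, and PBK, a mitotic kinase, followed with 232 CPM in non-dividing members against 9.06 CPM in non-dividing other cells. CCNA1 stood at 57.7 CPM (24 of 59 cells) against 4.34 CPM in the other cells. Of 16 genes of intermediate and neuronal precursors 4 were higher and 2 lower. HES6, DLL1 and GADD45G were among the higher, with HES6 at 207 CPM in non-dividing members against 78.3 CPM in the other cells, while SCGN and CALB2 were lower. On the low side 10 of 12 HLA class II genes were past 2-fold, median -1.60, HLA-DRA standing at 313 CPM in non-dividing members and 997 CPM in non-dividing other cells. Of these other cells 34.1% lay in cluster 1, led by HLA class II genes. Astrocyte genes were lower for 4 of 18, among them CLU and GFAP, at 1245 and 355 CPM in non-dividing members against 2955 and 741 CPM in non-dividing other cells. Dividing other cells low in CRABP1 were also low in both lists. The HLA class II list summed to 757 CPM in them, 735 CPM in non-dividing members and 2413 CPM in non-dividing other cells. The astrocyte list summed to 2286, 2655 and 5082 CPM in these 3 groups. STMN2 had no UMI in the non-dividing members and stood at 11.95 CPM in the non-dividing other cells. Counting 3 UMIs as the floor over the non-dividing members gives a 2.97-fold difference. That value counts UMIs and does not cover which cells were sampled. In the other cells STMN2 was found in only 202 of 6528, so 59 cells may hold no carrier.

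Of 8998 genes, 537 were called higher in dividing than in non-dividing members (5.97%) and 176 lower (1.96%), 7.92% in all. Leaving out MKI67 and TOP2A, which made the split, 21 of 23 G2 and mitosis genes were higher in dividing members. The 2 that were not were BIRC5, at 493 CPM in dividing and 333 CPM in non-dividing members, and PBK, at 394 and 232 CPM. CDK1 differed most of this list, at 622 CPM in dividing members and 52.4 CPM in non-dividing members. CDC20 stood at 412 and 101 CPM in these groups, and AURKB at 134 and 17.5 CPM. ESPL1 had 156 UMIs in dividing members, 18.2 CPM, and none in the non-dividing members. Counting 3 UMIs as the floor over the non-dividing members gives a 4.51-fold difference. That value leaves out counting error in the 156 UMIs and does not cover which cells were sampled. S phase genes were past 2-fold for 3 of 24, all higher in dividing members. Depth differed, with a median of 15164.5 UMIs in dividing and 9690 UMIs in non-dividing members. Among the lowest genes, all 23 C6orf15 UMIs of the non-dividing members came from 2 cells, so that value describes those cells.

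**Figure D3:**
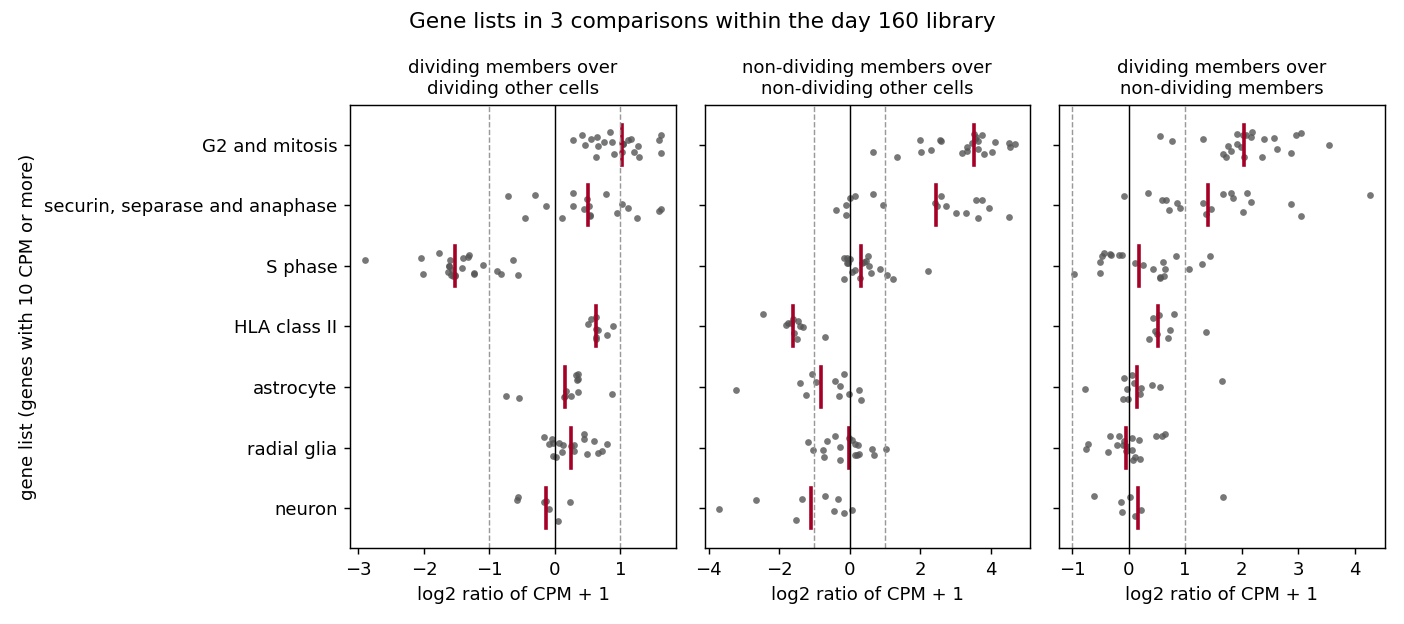
Log2 ratios of CPM + 1 of single genes (points, genes that reached 10 CPM in either group) in 7 gene lists for 3 comparisons, without MKI67 and TOP2A; red bars are the medians over all listed genes, dashed lines mark 2-fold. G2 and mitosis genes lie at a median of 1.03 among dividing cells and 3.54 among non-dividing cells, and S phase genes at -1.53 among dividing cells.

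Clusters built without NMU and CRABP1 put the members mostly in 1 place. Cluster 6, led by CDC20, UBE2C and CCNB1, held 411 members, which is 82.7% of them and 43.3% of its 950 cells. It held 374 of 438 dividing members (85.4%) and 37 of 59 non-dividing members (62.7%), against 30.5% of dividing and 0.996% of non-dividing other cells low in CRABP1. Most dividing other cells low in CRABP1, 62.7%, lay in cluster 3, led by the S phase genes PCLAF and TYMS, where 35 members lay. Another 31 members lay in cluster 10, led by the contractile and matrix genes TAGLN, COL1A1 and ACTA2, at 10.6% of its cells and 30.9% of its dividing cells. In an equal count of 15 nearest neighbours by expression, members had a mean of 49.3% members, dividing other cells low in CRABP1 15.5% and all other passing cells 2.55%. Members were 4.98% of all passing cells and 43.3% of cluster 6, where most of them lay. By division, the mean was 52.0% for dividing and 29.7% for non-dividing members. The genes that define a cluster were used to build it and are no result.

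**Figure D4:**
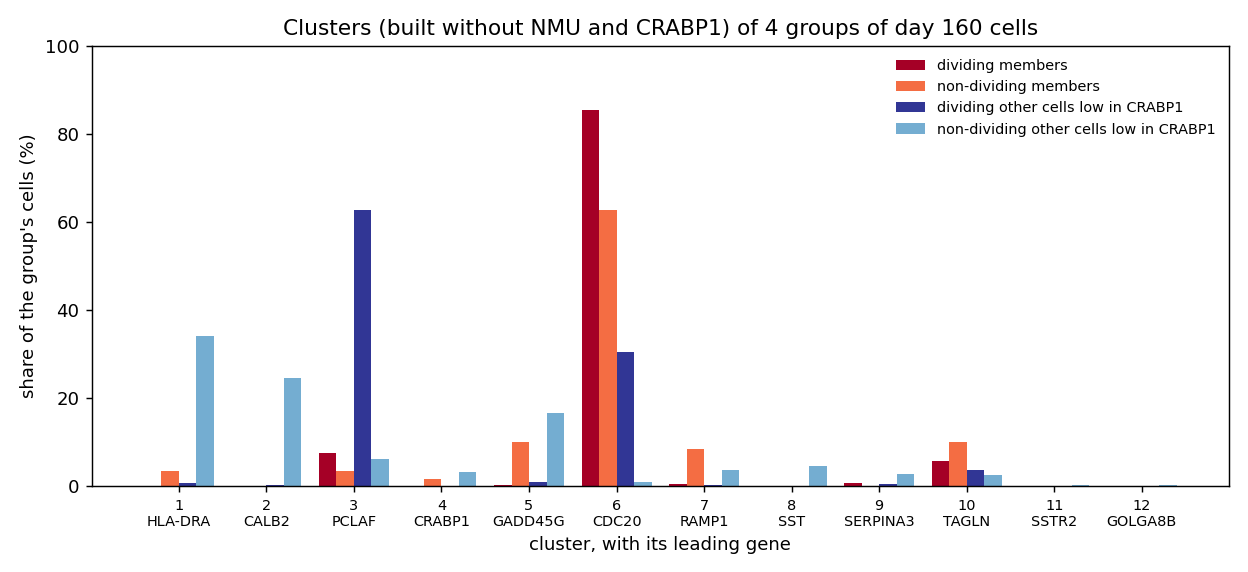
Share of each group's cells (vertical axis, %) in 12 clusters of the day 160 cells, each shown with its leading gene. Cluster 6 holds 85.4% of dividing and 62.7% of non-dividing members, and cluster 3 holds 62.7% of the dividing other cells low in CRABP1.

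In the day 220 library, NMU stood at 4.12 CPM over its 524 passing cells, against 21.7 CPM over the 9972 passing cells of day 160, and PTTG1 at 47.7 against 236 CPM. Dividing cells were 5.53% of the passing cells at day 220 and 17.9% at day 160, at a median of 46438 UMIs per cell at day 220 against 10457.5 at day 160; the 2 libraries differ in depth and in time, which cannot be told apart here. The same NMU and CRABP1 limits were met by 14 day 220 cells, of which 13 were dividing (92.9%, 66.1 to 99.8), against 16 of the 510 other day 220 cells (3.14%). These 14 cells took no part in choosing genes. They differed from the other day 220 cells in the share dividing. No comparison among dividing cells only was made at day 220, so the part of division in what follows was not tested. All 12 genes highest at day 160 were past 2-fold higher in the 14 cells than in the other day 220 cells, as were 277 of the 283 genes higher at day 160 (97.9%), beside 8.33% of all 10371 genes tested there. CCNB1 stood at 383 CPM in the 14 cells and 9.23 CPM in the other day 220 cells, and PTTG1 at 725 and 24.8 CPM. CCNA1 had 15 UMIs in 6 of the 14 cells (17.6 CPM) and 6 UMIs in the 510 others (0.239 CPM). On the low side, 46 of the 87 genes lower at day 160 were past 2-fold lower (52.9%), beside 7.07% of all genes. The 283 and 87 genes had to reach 10 CPM at day 160 only, and the 10371 genes at day 220, so these shares have unlike bases. SST and STMN2 had 0 UMIs in the 14 cells and 1 UMI each in the other day 220 cells.

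**Figure D5:**
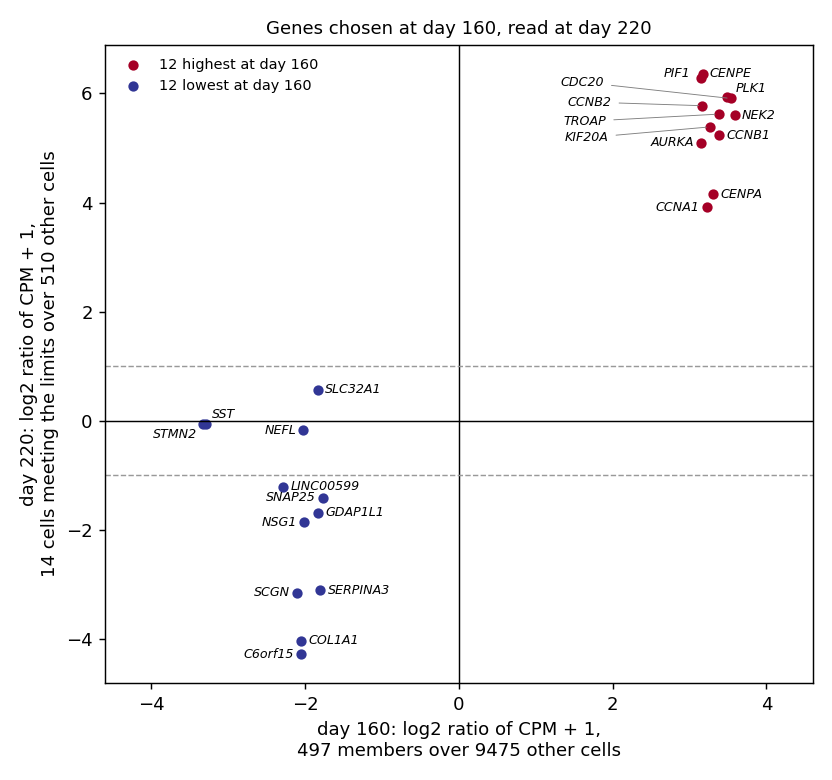
Log2 ratios of CPM + 1 for the 12 highest and 12 lowest genes of the day 160 members, at day 160 (horizontal, 497 members over 9475 other cells) and at day 220 (vertical, 14 cells meeting the same limits over 510 other cells); dashed lines mark 2-fold. All 12 high genes lie above 2-fold at day 220, while 8 of the 12 low genes lie below it.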

How the data were processed

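Single-cell RNA was counted in 2 libraries of H7-derived astrocyte progenitors (droplet 3′-end chemistry, per the labels). The authors deposited UMI counts, unnormalized, for 36601 genes. Version 7.0.1 of Cell Ranger stands in the headers of the count files (per the file headers), and the submitters' processing notes list hg38 with Cell Ranger 7 and Seurat 4. Use of introns and strand, annotation and cell calling: not given in the sources used here. Day 160 held 13018 barcodes and 156737179 UMIs (9972 passing), and day 220 held 676 barcodes and 29040529 UMIs (524 passing). The libraries shared 3 barcodes, none of them a member.

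UMIs were summed over the cells of a group and given as CPM, with exact Poisson intervals; ratios have exact conditional binomial and shares Clopper-Pearson intervals, all 95%. Fold changes are of CPM + 1, and genes count as tested from 10 CPM in either group. Cells with 5000 or more UMIs were thinned to 5000 without replacement (seed 1); this kept 494 of 497 members and 8785 of 9475 other cells. Clusters used scanpy 1.11.5 and leidenalg 0.10.2 (2000 variable genes without NMU and CRABP1, 30 components, 15 neighbours, resolution 0.5), and Scrublet ran at an expected rate of 0.06; marked doublets stayed in the main values. Other tools were numpy 2.4.6, scipy 1.17.1, pandas 2.3.3 and matplotlib 3.10.9. The scripts were tested on simulated data. Named genes are the 12 highest and 12 lowest of each comparison, without antisense and clone-named genes, and those of 43 gene lists: all where 6 or fewer reached 10 CPM, otherwise the 2 highest and 2 lowest, and every gene of the neuromedin and securin lists; some of these are not reported here. Further genes shown across groups, such as MCM3, MKI67, TOP2A, GFAP, AQP4, VIM, SOX2 and HLA-DRA, were chosen after their values were seen. The members and lists were chosen with earlier results of these data known.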

Additional observations from a re-analysis of the deposited data

How the results depend on the processing

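A count of called genes is said to move where it changed by more than 1.5 times, and a level, a share or a gene's ratio where it left the 95% counting interval of its reported value. Over the comparisons, 70 alternative values moved and 46 did not. For the named genes 695 values did not move, 499 moved and 6 turned direction. With NMU at 1 or more UMIs C6orf15 turned to 0.80 (log2) against all other cells and 0.63 against those low in CRABP1. With at least 2000 genes and at most 10% mitochondrial UMIs it turned to 0.44 and 0.26 in these comparisons, and with only cells of 10000 to 20000 UMIs, an alternative chosen after seeing the data, to 0.35 among dividing cells. In such cells CALB2 turned to 0.50 against other cells low in CRABP1. The cause was not tested.

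The PTTG1 level of the members (1271 CPM) was 1665 CPM without mitochondrial and ribosomal genes, 1041 and 1403 CPM with NMU at 1 or 5 UMIs or more, 1573 CPM with 2000 genes and 10%, 1480 CPM thinned, 1584 CPM at 10000 to 20000 UMIs, 1467 CPM as a mean per cell and 1375 CPM without doublets. The dividing share (88.1%) was 91.8% by MKI67 alone, 79.3% with 2 UMIs of both genes, 79.9% and 93.7% with NMU at 1 or 5 or more, 91.1% with 2000 genes and 10%, 74.3% thinned and 91.5% at 10000 to 20000 UMIs.

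Against all other cells (283 higher, 87 lower), a limit of 50 CPM left 164 and 22, CPM + 10 left 183 and 24, and the lower count became 152 with NMU at 5 or more, 147 with 2000 genes and 10%, 166 thinned, 227 at 10000 to 20000 UMIs, 144 as a mean per cell and 190 with no limit. Against cells low in CRABP1 (302, 68), 50 CPM left 171 and 16, CPM + 10 left 192 and 12, and the lower count became 117 without mitochondrial and ribosomal genes, 117 with NMU at 5 or more, 159 with 2000 genes and 10%, 149 thinned, 301 at 10000 to 20000 UMIs, 124 as a mean per cell, 164 with no limit and 110 without doublets.

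Among non-dividing cells (330, 391), 50 CPM gave 102 and 56, CPM + 10 159 and 91, NMU at 1 or more 144 and 47, thinning 682 and 882 and no limit 1075 and 1509. Among dividing cells (43, 99), CPM + 10 gave 23 and 38, thinning 88 and 185, 10000 to 20000 UMIs 98 and 171 and CCNB1 at 5 or more 5 and 13. The higher count was 68 with 2000 genes and 10%, and the lower 38 at 50 CPM, 52 and 156 with NMU at 1 or 5 or more and 163 with no limit. Dividing against non-dividing members (537, 176) gave 142 and 14 at 50 CPM, 199 and 21 with CPM + 10, 1042 and 560 thinned and 1524 and 1086 with no limit. The lower count was 293 without mitochondrial and ribosomal genes and 71 with NMU at 1 or more.

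Comparisons that need the non-dividing members were not run with NMU at 5 or more (8 cells), with 2000 genes and 10% (17 cells) or at 10000 to 20000 UMIs (21 cells), under the minimum of 50 cells. No paired analysis was possible because each time point is 1 library and no result comes from a test. All intervals cover counting error. Spread between differentiations, and whether day or library sets the day 220 values, cannot be told apart in these files. Counts in the 59 non-dividing members rest on 744707 UMIs, and a count of 0 there allows up to 4.03 CPM (3 counts).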

Other observations

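Of 22 midbrain, hindbrain and spinal patterning genes, 4 HOXB genes were past 2-fold lower in the members than in the other passing cells and none higher, list median -0.06, beside 0.978% of all genes called lower. The limit on CRABP1 held for the members and not for all of these cells. Against the other cells with the same limit 6 of the 22 reached 10 CPM and none of these was past 2-fold. The list summed to 179 CPM in members and 164 CPM in those other cells. HOXB6 stood at 13.5 CPM in members and 45.7 CPM in other cells, and HOXB8 at 6.86 and 24.9 CPM. Set against dividing cells with the same CRABP1 limit, HOXB6 stood at 13.0 CPM in dividing members and 10.4 CPM in dividing other cells. Of 10 forebrain patterning genes (median -0.09) 8 reached 10 CPM, as did 8 of 12 interneuron genes (median -0.45). None of these was past 2-fold against all other cells. DLX2, a homeobox gene of interneuron precursors, stood at 427 CPM in members and 564 CPM in other cells.

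Lists of metabolism and signalling held at most 1 gene past 2-fold against all other cells, beside 3.18% of all genes higher and 0.978% lower, and 1 gene is no result about its list. LDHA, the lactate dehydrogenase subunit, was the 1 of 16 hypoxia and glycolysis genes called higher, at 245 CPM in members and 105 CPM in other cells. It stood at 256 CPM in non-dividing members against 103 CPM in non-dividing other cells, and at 244 against 171 CPM among dividing cells. FAS, a death receptor and p53 target, was the 1 of 14 p53 targets called higher, at 15.9 CPM in members and 7.18 CPM in other cells. SERPINA3, a reactive astrocyte gene that follows STAT3, was the 1 of 12 LIF and STAT3 genes called lower, at 16.6 CPM in members and 60.5 CPM in other cells. Among dividing cells it stood at 17.3 and 19.5 CPM in members and other cells. Of 14 Notch, 14 BMP and 18 Wnt genes, 11, 8 and 5 reached 10 CPM, and none of these was past 2-fold against all other cells.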
